A study of Mus musculus with 6 samples.

Results

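The genes described here are the 10 genes *H2-K1*, *H2-D1*, *H2-Q7*, *H2-T23*, *B2m*, *Tap1*, *Tap2*, *Tapbp*, *Erap1*, and *Nlrc5*, which encode MHC class I molecules, the proteins that load them with peptide, and a transcriptional activator of the pathway. They were taken as a list of names, written with earlier results of these data known, and the rule that picks them uses no measured value. All 10 were found among the 47643 genes of the count table, and all 10 were among the 11877 genes with at least 10 reads over the 6 samples, which were the genes tested.

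MHC class I molecules are carried by nearly all nucleated cells, T cells included, and display short peptides from proteins made inside the cell to CD8+ T cells and natural killer cells. The heavy chain pairs with beta-2 microglobulin in the endoplasmic reticulum, peptides cut by the proteasome are pumped in by the TAP transporter, tapasin holds the empty molecule at the transporter, and the peptidase ERAP1 trims the peptides to length. The promoters of classical heavy chain genes hold interferon- and NF-kB-responsive elements. NLRC5 acts on a conserved promoter module of class I genes much as CIITA does on MHC class II genes.

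The cells were CD4+ T cells sorted from spleens as *Nr4a3*-Blue+Red+, from Tg4 *Nr4a3*-Tocky Tiger mice. Tg4 mice carry a transgenic T cell receptor for myelin basic protein (MBP) peptide, the Tocky reporter drives a fluorescent Timer protein from *Nr4a3* after receptor signaling, and Tiger mice carry an *Il10*-GFP reporter. All 6 samples came from mice given 80 μg of [4Y] MBP peptide under the skin, then 800 μg of antibody after 24 h, and 8 μg of the same peptide 30 min after the antibody, with spleens taken 4 h later. The antibody was isotype control, anti-PD1 (clone 29F.1A12), or anti-Lag3 (clone CB97W in the labels and C9B7W in the study's methods), with 2 samples in each group. By the study's methods the isotype control was a pool of the rat isotypes of the other 2 antibodies. The transgenes, both peptide doses, and the sort were common to all groups, and no unstimulated or wild-type cells were compared. The age of the mice was not given in the sources used here.

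Libraries were made by QuantSeq, which counts reads near the 3′ end of each transcript. Total counts ran from 2107715 to 2648920 per sample, 3 reads corresponded to between 1.11 and 1.44 CPM (counts scaled to library size), and *Gm42418*, a gene that overlaps ribosomal RNA, took between 17.4% and 21.0% of counts. CPM are further scaled by TMM, are not divided by transcript length, and are compared between samples for a given gene, not between genes. The 8 CD4+ T cell markers summed to between 1957 and 2379 CPM, with reads for all 8, and lay at 2166 to 2379 CPM with isotype and at 1957 to 2121 CPM with anti-PD1. Because these are bulk samples, fewer cells of a type and less RNA per cell cannot be told apart.

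Of the members, 7 lie on chromosome 17 (GRCm38), in the MHC region. *H2-K1* (ENSMUSG00000061232, chr17:33996017-34000347, minus strand) and *Tapbp* (ENSMUSG00000024308, chr17:33915899-33929292, plus strand) are close to each other. *Tap1* (ENSMUSG00000037321, chr17:34187553-34197225) and *Tap2* (ENSMUSG00000024339, chr17:34203527-34216321) follow, both on the plus strand. *H2-D1* (ENSMUSG00000073411, chr17:35262730-35267499, plus strand), *H2-Q7* (ENSMUSG00000060550, chr17:35439155-35443773, plus strand), and *H2-T23* (ENSMUSG00000067212, chr17:36029773-36032855, minus strand) lie farther along. *B2m* (ENSMUSG00000060802, chr2:122147686-122153083), *Erap1* (ENSMUSG00000021583, chr13:74639568-74693201), and *Nlrc5* (ENSMUSG00000074151, chr8:94434356-94527272) are on other chromosomes, all on the plus strand.

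Promoter sequence is shown for the heavy chain genes and *B2m*, since these members were read together and *H2-T23* had the largest difference among them. Each line gives the 250 bases ahead of a RefSeq transcription start, 5′ to 3′ on the gene's strand, from RefSeq sequence of GRCm38.p6, and 8 of the 10 members had such a window (*Tap2* and *Nlrc5* did not). Capitals mark matches, on either strand, to the letters GGGATTCCC (the NF-kB site of class I enhancer A), GAANNGAAA and GAAANNGAAA (interferon-stimulated response element forms, which could overlap each other), TGACG (the core of the X2 box), and CCAAT (the core of the Y box). The windows are chr17:34000348-34000597 for *H2-K1*, chr17:35262844-35263093 for *H2-D1*, chr17:35438905-35439154 for *H2-Q7*, chr17:36032702-36032951 for *H2-T23*, and chr2:122147437-122147686 for *B2m*. Where a gene had several windows, the one with the highest genomic start coordinate was kept, whatever the strand. The RefSeq starts of *H2-D1* and *H2-T23* lie inside the GENCODE gene bounds given above. The sequence is that of the reference genome, and whether these mice carry the same bases was not given in the sources used here.
H2-K1: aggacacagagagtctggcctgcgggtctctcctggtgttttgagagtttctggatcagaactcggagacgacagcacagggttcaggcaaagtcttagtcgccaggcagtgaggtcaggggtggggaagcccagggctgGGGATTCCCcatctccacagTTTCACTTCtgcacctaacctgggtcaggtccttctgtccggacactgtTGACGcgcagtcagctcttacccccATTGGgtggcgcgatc
H2-D1: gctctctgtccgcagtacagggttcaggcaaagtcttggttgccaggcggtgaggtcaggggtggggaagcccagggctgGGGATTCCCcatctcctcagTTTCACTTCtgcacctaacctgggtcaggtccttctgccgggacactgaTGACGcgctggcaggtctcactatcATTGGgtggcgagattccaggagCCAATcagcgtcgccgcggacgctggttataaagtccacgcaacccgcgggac
H2-Q7: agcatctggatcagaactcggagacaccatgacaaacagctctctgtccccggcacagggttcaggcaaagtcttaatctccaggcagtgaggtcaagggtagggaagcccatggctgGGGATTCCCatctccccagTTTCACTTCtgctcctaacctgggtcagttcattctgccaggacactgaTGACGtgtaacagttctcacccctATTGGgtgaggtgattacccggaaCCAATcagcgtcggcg
H2-T23: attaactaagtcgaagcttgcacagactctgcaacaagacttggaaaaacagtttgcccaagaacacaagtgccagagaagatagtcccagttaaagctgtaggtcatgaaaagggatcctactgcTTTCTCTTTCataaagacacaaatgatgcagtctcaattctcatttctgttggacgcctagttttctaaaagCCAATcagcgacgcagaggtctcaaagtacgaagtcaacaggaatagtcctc
B2m: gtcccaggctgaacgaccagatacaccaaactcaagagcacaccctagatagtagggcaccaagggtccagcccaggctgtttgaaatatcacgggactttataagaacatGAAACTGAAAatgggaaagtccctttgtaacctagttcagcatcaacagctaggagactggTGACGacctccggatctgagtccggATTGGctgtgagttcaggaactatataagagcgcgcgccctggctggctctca

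The windows of *H2-K1*, *H2-D1*, and *H2-Q7* each held GGGATTCCC, found in 0.301% of 32851 promoter windows of this length, together with GAANNGAAA (6.31% of windows), TGACG (17.8%), and CCAAT (33.8%). In *H2-D1* these matches ran in the order GGGATTCCC at -170 to -162, GAANNGAAA at -150 to -142, TGACG at -101 to -97, and CCAAT at -76 to -72, counted from the base ahead of the start. A second CCAAT lay nearer the start, at -53 to -49 in *H2-D1* and at -16 to -12 in *H2-Q7*. This second match read CCAAT on the gene's strand and was followed by CAGCG, whereas the match nearer TGACG was on the other strand. The *H2-T23* window held none of GGGATTCCC, GAANNGAAA, and TGACG in these exact letters. It held GAAANNGAAA (2.98% of windows) at -124 to -115 and CCAAT at -52 to -48. That CCAAT was on the gene's strand and followed by CAGCG, like the second match of *H2-D1* and *H2-Q7*. Whether it serves as a Y box was not tested. Sequence of *H2-T23* outside this window was not searched. The *B2m* window held GAAANNGAAA at -139 to -130, TGACG at -78 to -74, and CCAAT at -53 to -49. Among the windows not printed, that of *Tap1* held TGACG and CCAAT, that of *Tapbp* held CCAAT at 2 places, and that of *Erap1* held none of the 5 patterns.

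The comparison of anti-PD1 with isotype asks how the sorted responding T cells differed when PD1 was blocked during peptide re-challenge. The sort was on the *Nr4a3* response itself, and the study reports a larger share of responders with anti-PD1. A change in which cells entered the gate and a change within cells cannot be told apart. None of the 10 members passed the test in this comparison (edgeR's quasi-likelihood test, Benjamini-Hochberg adjusted over all genes tested, threshold of 0.05), against 0.901% of all tested genes. DESeq2 also called 0 members, and 1 member, *H2-T23*, had an unadjusted p under 0.05, beside 8.12% of all tested genes. The median log2 fold change of the members was 0.02, beside 0.0045 over all genes tested, with 5 members above 0 and 5 below. The largest difference was that of *H2-T23*, whose mean was 34.6 CPM in the anti-PD1 samples and 17.2 CPM in the isotype samples, and *H2-K1*, *H2-D1*, and *B2m* had log2 fold changes between -0.02 and 0.08. The 2 samples of a group did not overlap those of the other for 5 members, 4 higher with anti-PD1 (*H2-K1*, *H2-D1*, *H2-Q7*, and *H2-T23*) and 1 lower (*Tapbp*), beside the 37.4% of all tested genes whose groups did not overlap.

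Anti-Lag3 gave 0 of 10 members called against isotype, beside 0.0421% of all tested genes, with 0 by DESeq2 and 0 at an unadjusted p under 0.05 (5.96% of all tested genes). The members' median log2 fold change was 0.0056 (0.00071 over all genes tested), and the groups did not overlap for 1 member, *H2-T23*, beside 34.6% of all tested genes. Anti-PD1 compared with anti-Lag3 also gave 0 of 10 members called, beside 0.303% of all tested genes, with 0 by DESeq2, which gave no adjusted p for *H2-T23* and *Nlrc5*, and 0 at an unadjusted p under 0.05 (6.53% of all tested genes). There the median was 0.04 (-0.0025 over all genes tested), and the groups did not overlap for 3 members, *H2-Q7* and *H2-T23* higher with anti-PD1 and *Nlrc5* lower, beside 35.9% of all tested genes. The 2 comparisons with isotype share the isotype samples.

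**Figure D1:**
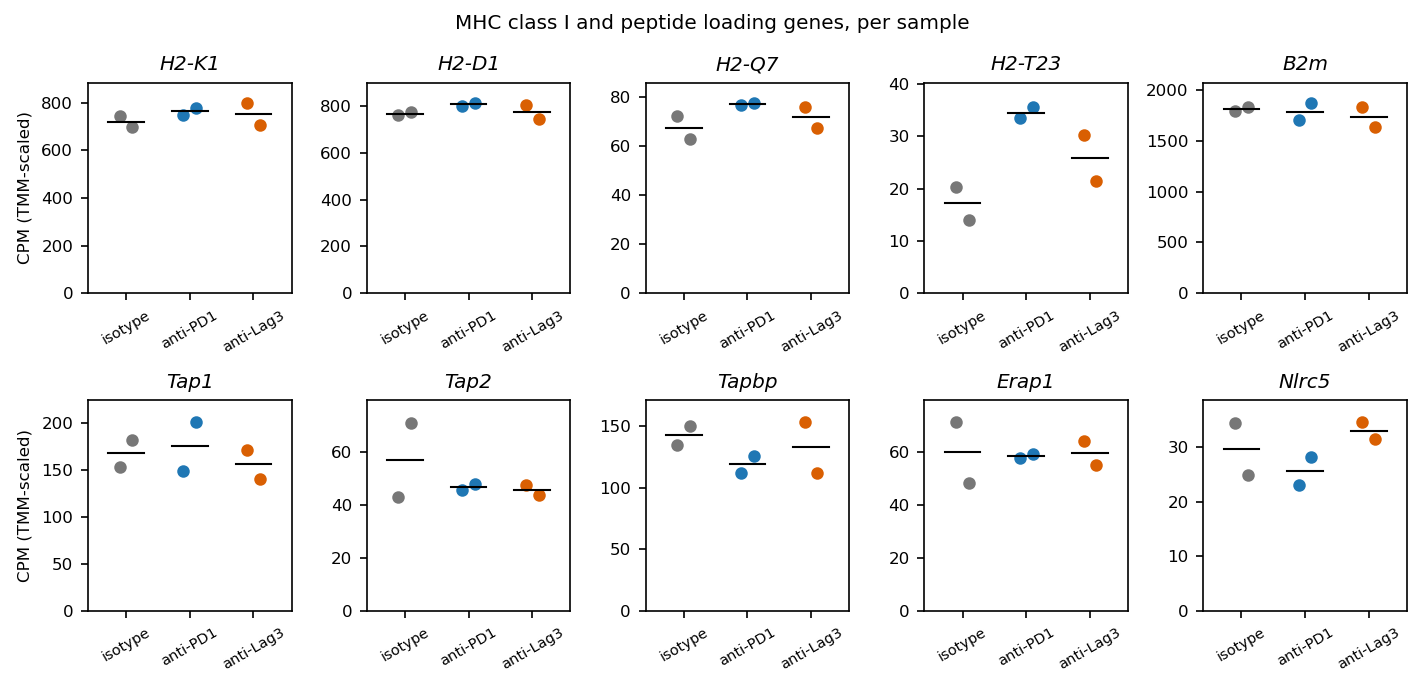
CPM (TMM-scaled, linear axis from 0) of each of the 10 members, with 1 point per sample and a bar at the mean of the 2 samples of each group. *H2-T23* sits at 14.1 and 20.3 CPM with isotype and at 33.5 and 35.6 CPM with anti-PD1, while the other panels show groups that overlap or lie close together.

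Among the heavy chains, *H2-K1* and *H2-D1* encode the classical molecules that present peptide to CD8+ T cells. *H2-K1* had 744 and 696 CPM with isotype, 750 and 776 CPM with anti-PD1, and 799 and 705 CPM with anti-Lag3. Its highest and one of its lowest samples were both from the anti-Lag3 group, which spanned the other groups apart from isotype replicate 2. The log2 fold change of *H2-K1* was 0.08 (SE 0.09, 95% interval -0.10 to 0.27, adjusted p = 0.917 by edgeR) for anti-PD1 against isotype and 0.06 (SE 0.09, -0.13 to 0.25, adjusted p = 0.967) for anti-Lag3 against isotype. As folds, the anti-PD1 interval ran from 0.930 to 1.21.

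*H2-D1* had 762 and 773 CPM with isotype, 801 and 815 CPM with anti-PD1, and 804 and 743 CPM with anti-Lag3. Both anti-PD1 samples were above both isotype samples, by a margin smaller than the gap between the anti-Lag3 replicates. The log2 fold change for anti-PD1 against isotype was 0.07 (SE 0.09, 95% interval -0.11 to 0.26, adjusted p = 0.935 by edgeR), and for anti-Lag3 against isotype 0.01 (-0.17 to 0.19, adjusted p = 0.995). Thus the intervals for both classical heavy chains covered 0 and reached no more than 0.27 on the log2 scale in either comparison with isotype.

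*H2-Q7* encodes a nonclassical molecule of the Qa-2 type. It had 72.1 and 62.8 CPM with isotype, 76.7 and 77.3 CPM with anti-PD1, and 75.9 and 67.2 CPM with anti-Lag3. The anti-PD1 samples were the highest of the 6 and close to each other, and isotype and anti-Lag3 overlapped. The log2 fold change of *H2-Q7* was 0.19 (SE 0.18, 95% interval -0.16 to 0.55, adjusted p = 0.880 by edgeR) for anti-PD1 against isotype, 0.09 (adjusted p = 0.969) for anti-Lag3 against isotype, and 0.11 (adjusted p = 0.979) for anti-PD1 against anti-Lag3.

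*H2-T23* encodes the heavy chain of Qa-1, the mouse counterpart of HLA-E, a nonclassical molecule known for presenting leader peptides of classical class I chains to the inhibitory receptor CD94/NKG2A on natural killer cells and CD8+ T cells. Its raw reads were 43 and 35 with isotype, 70 and 87 with anti-PD1, and 72 and 58 with anti-Lag3. In CPM these were 20.3 and 14.1 with isotype, 33.5 and 35.6 with anti-PD1, and 30.4 and 21.5 with anti-Lag3. The 3 groups did not overlap, with isotype lowest and anti-PD1 highest, although anti-Lag3 replicate 2 was close to isotype replicate 1. Group means were 17.2 ± 4.37 CPM with isotype, 34.6 ± 1.44 CPM with anti-PD1, and 26.0 ± 6.24 CPM with anti-Lag3 (SD, n = 2).

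For anti-PD1 against isotype the log2 fold change of *H2-T23* was 1.02 (SE 0.29, 95% interval 0.43 to 1.61), a fold of 2.03 (1.35 to 3.05), with an adjusted p of 0.0915 by edgeR and 0.504 by DESeq2. The gene ranked 152 of 11877 by p, and 93.7% of tested genes had a lower log2 fold change. It did not pass the threshold in the fit of all 6 samples. It passed in edgeR fits of the 4 samples of this comparison alone (adjusted p = 0.0457), without anti-Lag3 replicate 1 (adjusted p = 0.0460), and without anti-Lag3 replicate 2 (adjusted p = 0.0408). With an isotype or anti-PD1 sample left out, the log2 fold change ran from 0.77 without isotype replicate 2 (adjusted p = 0.600) to 1.30 without isotype replicate 1 (adjusted p = 0.0633). The call thus differed between these fits, for a cause that was not tested, and the difference kept its sign in every alternative run.

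For anti-Lag3 against isotype the log2 fold change of *H2-T23* was 0.60 (SE 0.30, 95% interval -0.00027 to 1.20, adjusted p = 0.834 by edgeR). Between anti-PD1 and anti-Lag3 it was 0.42 (SE 0.28, -0.14 to 0.98, adjusted p = 0.868). Neither comparison passed, so the order of anti-PD1 and anti-Lag3 was not resolved.

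Read within each library, *H2-T23* had 13.5 and 9.59 reads for every 1000 reads of *H2-K1* and *H2-D1* together with isotype. It had 21.6 and 22.4 with anti-PD1 and 18.9 and 14.9 with anti-Lag3. By the same measure *H2-Q7* had 47.9 and 42.8 with isotype, 49.4 and 48.6 with anti-PD1, and 47.4 and 46.4 with anti-Lag3. By this ratio the 3 groups did not overlap for *H2-T23*, in the same order as by CPM, while for *H2-Q7* both anti-PD1 samples were the highest. These ratios do not depend on the scaling between libraries and were not tested.

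The reads of *H2-T23* carry limits of annotation. The lncRNA gene *A930015D03Rik* overlaps it on the other strand, with 8 and 10 reads with isotype, 18 and 6 with anti-PD1, and 16 and 13 with anti-Lag3, and the strand setting of the counting was not given in the sources used here. Of 226 stretches of 75 bases in the last 300 bases of its transcripts, 65 (28.8%) also occur in transcripts of other genes, against 0.803% for *H2-K1* and 0% for *H2-D1*, *H2-Q7*, and *B2m*. How such reads were assigned was not tested. The class I alleles of these mice were not given in the sources used here. The effect of haplotype on the counts of *H2-T23*, and on those of *H2-K1*, *H2-D1*, and *H2-Q7*, was not tested.

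*B2m* encodes the light chain shared by all class I heavy chains. It had 1794 and 1831 CPM with isotype, 1701 and 1872 CPM with anti-PD1, and 1828 and 1633 CPM with anti-Lag3. The 3 groups overlapped. Its log2 fold change was -0.02 (SE 0.08, 95% interval -0.18 to 0.14, adjusted p = 0.987 by edgeR) for anti-PD1 against isotype, a fold between 0.880 and 1.10, and -0.07 (-0.23 to 0.10, adjusted p = 0.961) for anti-Lag3 against isotype. Reads of *H2-K1* and *H2-D1* together, divided by those of *B2m*, gave 0.840 and 0.802 with isotype, 0.912 and 0.850 with anti-PD1, and 0.877 and 0.887 with anti-Lag3.

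*Tap1* and *Tap2* encode the chains of the peptide transporter. *Tap1* had 153 and 182 CPM with isotype, 149 and 201 CPM with anti-PD1, and 171 and 140 CPM with anti-Lag3, with both the highest and one of the lowest samples in the anti-PD1 group. *Tap2* had 42.9 and 70.8 CPM with isotype, 45.5 and 47.8 CPM with anti-PD1, and 47.2 and 43.8 CPM with anti-Lag3. Isotype replicate 2 stood above the other 5 samples for *Tap2*, which lay between 42.9 and 47.8 CPM. Against isotype, the log2 fold change of *Tap1* was 0.07 (95% interval -0.23 to 0.36, adjusted p = 0.973 by edgeR) with anti-PD1 and -0.11 (-0.40 to 0.18, adjusted p = 0.964) with anti-Lag3. That of *Tap2* was -0.29 (-0.73 to 0.15, adjusted p = 0.832) with anti-PD1 and -0.33 (-0.77 to 0.11, adjusted p = 0.904) with anti-Lag3. Without isotype replicate 2 these *Tap2* values became 0.12 and 0.09. *Psmb9* overlaps *Tap1* on the other strand, with 294 to 423 reads per sample.

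*Tapbp* encodes tapasin. It had 135 and 150 CPM with isotype, 112 and 126 CPM with anti-PD1, and 154 and 112 CPM with anti-Lag3. Both anti-PD1 samples were below both isotype samples, and the anti-Lag3 group held the highest of the 6 samples and, at 112 CPM, a sample level with the lowest. Its log2 fold change was -0.26 (SE 0.15, 95% interval -0.57 to 0.04, adjusted p = 0.707 by edgeR) for anti-PD1 against isotype and -0.11 (-0.41 to 0.19, adjusted p = 0.967) for anti-Lag3 against isotype. By p in the first of these comparisons it came next after *H2-T23* among the members, at rank 1531 of 11877, and it did not pass. *Zbtb22* overlaps it on the same strand, with 21 to 44 reads per sample.

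*Erap1* encodes the aminopeptidase that trims peptides in the endoplasmic reticulum. It had 71.2 and 48.3 CPM with isotype, 57.5 and 59.3 CPM with anti-PD1, and 64.1 and 55.0 CPM with anti-Lag3. The isotype samples were the highest and the lowest of the 6. For *Erap1* the log2 fold change was -0.02 (SE 0.20, 95% interval -0.43 to 0.38, adjusted p = 0.991 by edgeR) for anti-PD1 against isotype and 0.00089 (-0.40 to 0.40, adjusted p = 0.999) for anti-Lag3 against isotype. *Cast* overlaps *Erap1* on the other strand, with 138 to 210 reads per sample.

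*Nlrc5* encodes the class I transactivator. It had 34.4 and 25.0 CPM with isotype, 23 and 28.2 CPM with anti-PD1, and 34.6 and 31.6 CPM with anti-Lag3. Both anti-PD1 samples were below both anti-Lag3 samples, and isotype overlapped both. Its log2 fold change was -0.20 (SE 0.27, 95% interval -0.74 to 0.34, adjusted p = 0.949 by edgeR) for anti-PD1 against isotype, 0.16 (-0.36 to 0.69, adjusted p = 0.967) for anti-Lag3 against isotype, and -0.36 (-0.90 to 0.17, adjusted p = 0.901) for anti-PD1 against anti-Lag3. *Nlrc5* is the least deeply counted member after *H2-T23*, with 419 reads over the 6 samples, and its intervals allow differences of over 0.5 on the log2 scale.

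**Figure D2:**
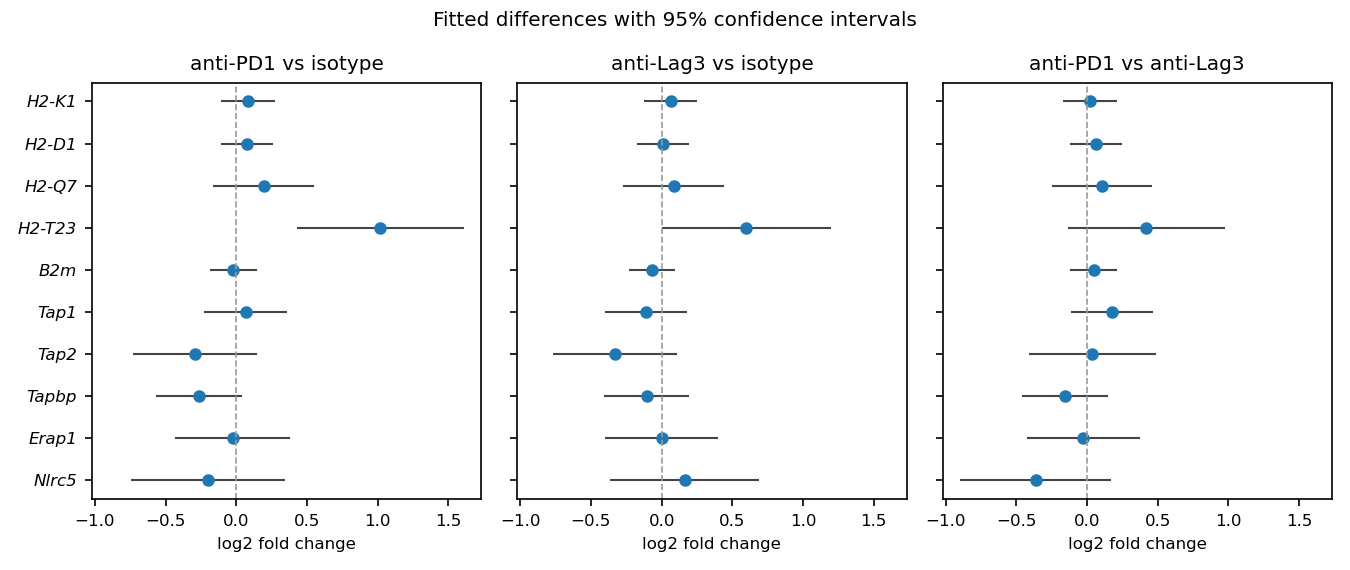
Log2 fold change of each member (point) with its 95% confidence interval (line) in the 3 comparisons, from 1 edgeR fit of all 6 samples. The interval of *H2-T23* for anti-PD1 against isotype, 0.43 to 1.61, is the one that does not cover 0, and the intervals of *H2-K1*, *H2-D1*, and *B2m* are the narrowest.

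The members summed to 3828 to 3852 CPM with isotype, 3748 to 4037 CPM with anti-PD1, and 3553 to 4007 CPM with anti-Lag3. The isotype range lay inside that of both antibody groups. When the members' log2 CPM were standardised and averaged, the mean was highest in anti-Lag3 replicate 1 (0.68) and lowest in anti-Lag3 replicate 2 (-0.81), with anti-PD1 replicate 2 at 0.58 and the other 3 samples between -0.28 and 0.04. The 2 anti-Lag3 replicates thus stood farther apart on this average than any group stood from another. Of 5423 genes with a mean of at least 20 CPM, the most like this average over the 6 samples were *Sirt2* (Pearson r = 0.98), *Lgals1* (r = 0.98), and *Mir703* (r = 0.96), and 32 genes had r over 0.9. These are a description over 6 libraries that also share depth and scaling, with no test. How many of the 5423 genes would reach an r over 0.9 by chance was not tested.

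The other genes of the pathway were read from lists written with earlier results of these data known. Counts at an unadjusted p under 0.05 stand beside 8.12%, 5.96%, and 6.53% of all tested genes for anti-PD1 against isotype, anti-Lag3 against isotype, and anti-PD1 against anti-Lag3. Of 23 other class I genes, 20 were in the count table and 11 were tested, and 0 passed in any of the 3 comparisons by edgeR or DESeq2, with 0, 1, and 0 at an unadjusted p under 0.05 for anti-PD1 against isotype, anti-Lag3 against isotype, and anti-PD1 against anti-Lag3. Their median log2 fold changes in that order were -0.44, -0.10, and -0.12, and most had few reads. *H2-T22*, a nonclassical gene of the T region, had 34.4 and 21.3 CPM with isotype, 32.6 and 33.1 CPM with anti-PD1, and 35.4 and 36.0 CPM with anti-Lag3. Its log2 fold change was 0.25 (SE 0.26, adjusted p = 0.906 by edgeR) with anti-PD1 and 0.37 (SE 0.26, adjusted p = 0.911) with anti-Lag3 against isotype. For *H2-T24*, *H2-Q4*, and *H2-T3*, the next by level, the values against isotype with anti-PD1 were 0.11, -0.13, and 0.24, each with an adjusted p of at least 0.975.

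Upstream of loading, 0 of 14 genes of peptide supply (proteasome subunits and activators, and peptidases) passed in any comparison by edgeR or DESeq2, with 0, 1, and 1 at an unadjusted p under 0.05 in the same order. Their median log2 fold changes were -0.08, -0.0024, and -0.07. With anti-PD1 against isotype 4 were above 0 and 10 below, beside 6015 above and 5861 below of 11877 tested genes. *Psmb8*, an immunoproteasome subunit, had 323 and 293 CPM with isotype, 256 and 278 CPM with anti-PD1, and 310 and 345 CPM with anti-Lag3. Its anti-PD1 samples were below the other 4, and its log2 fold change was -0.20 (SE 0.11, adjusted p = 0.697 by edgeR) against isotype and -0.29 (SE 0.11, adjusted p = 0.575) against anti-Lag3. *Psmb9*, another immunoproteasome subunit, and *Psme1*, of the proteasome activator, were at -0.03 (adjusted p = 0.987) and -0.08 (adjusted p = 0.947) with anti-PD1 against isotype. *Tpp2*, a cytosolic peptidase, was at -0.07 (adjusted p = 0.968).

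The 6 chaperones of the endoplasmic reticulum that fold or hold class I molecules gave 0 passing in any comparison by edgeR or DESeq2, with 1, 0, and 0 at an unadjusted p under 0.05, and medians of -0.02, -0.06, and -0.06. *Calr* (calreticulin) and *Canx* (calnexin) were at 0.01 and 0.0074 with anti-PD1 against isotype (adjusted p = 0.990 and 1.0 by edgeR). *Hspa5*, which encodes the chaperone BiP, was at 0.10 (adjusted p = 0.892), and *Pdia3*, a partner of tapasin in the loading complex, was at -0.27 (SE 0.12, adjusted p = 0.536).

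Of 14 transcription factors known to act at class I promoters, 0 passed in any comparison by edgeR or DESeq2, with 2, 0, and 1 at an unadjusted p under 0.05. Their medians were -0.17, -0.01, and -0.05, and with anti-PD1 against isotype 3 were above 0 and 11 below. With anti-PD1 against isotype, *Nfkb1*, an NF-kB subunit, was at 0.33 (SE 0.14, adjusted p = 0.474 by edgeR), *Nfyb*, which binds CCAAT boxes, at 0.23 (adjusted p = 0.772), and *Creb1*, a factor of the X2 box, at -0.0087 (adjusted p = 1.0). *Irf2*, which binds interferon-stimulated response elements, is named after its values were seen. It had 85.3 and 89.0 CPM with isotype, 54.1 and 57.2 CPM with anti-PD1, and 80.1 and 83.2 CPM with anti-Lag3, so that anti-PD1 stood apart from the other 4 samples. Its log2 fold change was -0.64 for anti-PD1 against isotype, with an adjusted p of 0.0623 by edgeR that did not pass, and -0.55 (adjusted p = 0.315) for anti-PD1 against anti-Lag3.

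Of 20 interferon-stimulated genes, 0 passed in any comparison by edgeR or DESeq2, with 3, 2, and 1 at an unadjusted p under 0.05. Their medians were 0.06, 0.01, and -0.02, with values between -1.43 and 0.72 for anti-PD1 against isotype. *Isg15*, a ubiquitin-like interferon product, was at -0.02 (SE 0.16, adjusted p = 0.992 by edgeR) with anti-PD1 and -0.04 (adjusted p = 0.989) with anti-Lag3 against isotype. The interferon-inducible GTPases *Ifi47*, *Igtp*, and *Iigp1* were at 0.19, -0.12, and -0.15 with anti-PD1 and 0.36, 0.21, and 0.22 with anti-Lag3 against isotype, none past the threshold.

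The 8 tested genes of the MHC class II pathway, listed as a contrast, gave 0 passing in any comparison by edgeR or DESeq2, with 4, 2, and 2 at an unadjusted p under 0.05, and medians of -1.29, -0.44, and -0.31. The 10 listed genes summed to 51.8 to 73.3 CPM with isotype, 28.8 to 39.3 CPM with anti-PD1, and 27.4 to 56.1 CPM with anti-Lag3. *H2-Aa*, a class II alpha chain, had 8.01 and 19.3 CPM with isotype, 4.31 and 3.27 CPM with anti-PD1, and 5.48 and 16.7 CPM with anti-Lag3. Its log2 fold change was -1.86 for anti-PD1 against isotype (SE 0.54, adjusted p = 0.0929 by edgeR). *Cd74*, the invariant chain, was at -1.12 (SE 0.44, adjusted p = 0.394), *H2-Ab1* at -1.46 (SE 0.55, adjusted p = 0.350), and *H2-Eb1* at -0.18 (SE 0.46, adjusted p = 0.979) in that comparison. Each of these class II genes had under 20 CPM in every sample.

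**Figure D3:**
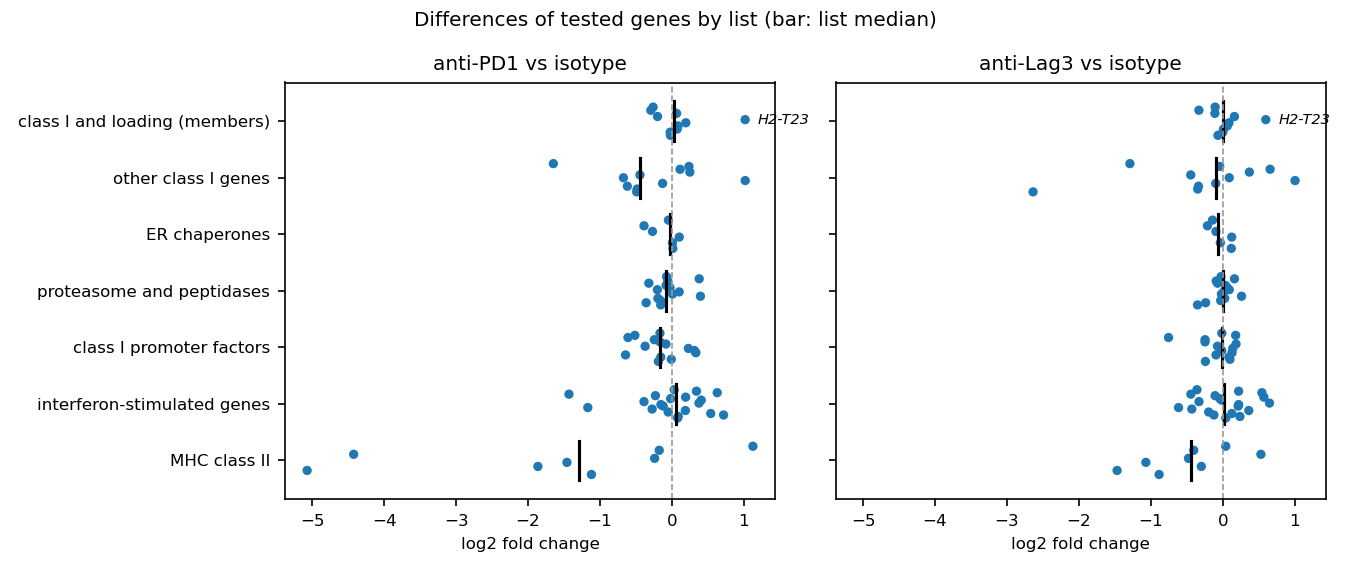
Log2 fold change of each tested gene (point), by list, for anti-PD1 and anti-Lag3 against isotype, with a bar at the median of each list. With anti-PD1 the medians are 0.02 for the members, -0.02 for chaperones, 0.06 for interferon-stimulated genes, and -0.08 for peptide supply. They are -0.17 for promoter factors, -0.44 for other class I genes, and -1.29 for the MHC class II list. *H2-T23* is at 1.02 with anti-PD1 and 0.60 with anti-Lag3.

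Markers of other cells of the spleen were read beside the members. The 8 B cell markers (7 with reads, *Cd79a* at 0 in all samples) summed to 119 to 132 CPM with isotype, 51.1 to 65.2 CPM with anti-PD1, and 82.7 to 123 CPM with anti-Lag3. *Ighm* and *Igkc*, immunoglobulin chains, fell with anti-PD1 against isotype, with log2 fold changes of -0.89 (SE 0.20, adjusted p = 0.00836 by edgeR) and -2.51 (SE 0.48, adjusted p = 0.00132), and *Ighm* also fell against anti-Lag3 (-0.88, adjusted p = 0.0227). The 9 myeloid markers, all with reads, summed to 53.5 to 58.0 CPM with isotype, 19.7 to 32.7 CPM with anti-PD1, and 30.8 to 36.4 CPM with anti-Lag3. *C1qa*, a complement chain of macrophages, fell with anti-PD1 against isotype (-2.59, SE 0.64, adjusted p = 0.0266 by edgeR). By log2 fold change, 7 myeloid markers were lower with anti-PD1 and 2 were higher. The higher ones were *Cd68* (2.83 and 2.01 CPM with isotype, 5.75 and 3.68 CPM with anti-PD1) and *Tyrobp*, and neither overlapped between the groups. DESeq2 called 1 B cell marker in anti-PD1 against isotype, and otherwise 0 B cell and 0 myeloid markers in the 3 comparisons. The 2 CD8+ T cell markers summed to 48.3 to 54.7 CPM with isotype, 29.9 to 34.5 CPM with anti-PD1, and 32.7 to 33.7 CPM with anti-Lag3. The 4 natural killer cell markers summed to 1.11 to 4.24 CPM over all samples, the 6 dendritic cell markers to 0.479 to 3.30 CPM (*Zbtb46* and *Siglech* at 0 in all), and the 7 erythroid and platelet markers to 18.7 to 51.6 CPM (*Pf4* at 0 in all). The B cell, myeloid, MHC class II, CD8+ T cell, natural killer cell, and CD4+ T cell sums were all lower with anti-PD1 than with isotype. The dendritic cell sums and the erythroid and platelet sums overlapped between these groups. The part of other cells in the members' values was not tested.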

How the data were processed

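RNA from *Nr4a3*-Blue+Red+ CD4+ T cells was measured in 6 samples, 2 in each of 3 groups taken from the sample titles. The authors made QuantSeq 3′ libraries, trimmed the reads, aligned them with STAR 2.5.2a to GRCm38 (mm10), and counted them per gene with HTSeq. The deposited counts are raw whole numbers with no normalization. A table of rlog values was not used. The annotation release and strand setting were not given in the sources used here. A further replicate of each group, sorted and processed as a batch and set aside by the authors as an outlier, was not analysed here. The study's methods describe replicate mice stained separately before sorting, and the labels call the samples biological duplicates.

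Genes reaching 10 reads summed over the libraries, the study's filter, were fitted in 1 model of all 6 samples with group as the only term, using edgeR 4.0.16 in R 4.3.3 (TMM, estimateDisp, glmQLFit, glmQLFTest, legacy). P-values were adjusted by Benjamini-Hochberg over all genes tested, with a threshold of 0.05. Standard errors are the log2 fold change divided by the root of F, and intervals are 95%. The fits were tested on simulated counts. The 2 libraries of a group were checked against each other and kept apart, since their counts differed beyond sampling noise (chi-square over degrees of freedom of 2.65 to 3.29). Depth limits genes with few reads most, as the standard errors show.

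Alternatives were DESeq2 1.42.0, its size factors in edgeR, filterByExpr, no filter beyond 1 read, the 4 samples of a comparison alone, removal of *Gm42418* and mitochondrial ribosomal RNA, each library left out, and the replicate number as a block. The members and lists were chosen with earlier results of these data known. The genes named are all members, list genes past the threshold or among the 4 highest by mean level of a list, and the 3 genes most like the members' average. Not every gene so chosen is reported here. Symbols came from GENCODE (GRCm38) for 47224 of 47643 identifiers. Figures were drawn with matplotlib 3.10.9.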

Additional observations from a re-analysis of the deposited data

How the results depend on the processing

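Of 210 log2 fold changes of members under the alternatives that kept all libraries of a comparison, 205 kept their direction and their side of the threshold. The exceptions were *H2-T23* for anti-PD1 against isotype, which passed when the 4 samples of the comparison were fitted alone (1.02, adjusted p = 0.0457, edgeR), and *Erap1* for anti-Lag3 against isotype, whose value near 0 turned to -0.00238 with DESeq2, -0.0001174 with DESeq2's size factors, -0.001449 with filterByExpr, and -8.675e-05 without *Gm42418* and mitochondrial ribosomal RNA. The number of members called for anti-PD1 against isotype was 1 with the 4 samples alone and 0 to 1 with a library left out, and it was 0 in the other comparisons under every alternative run.

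Over all genes tested, anti-PD1 against isotype gave 107 called, 175 with the 4 samples alone, and 53 (without isotype replicate 2) to 185 (without anti-Lag3 replicate 1) with a library left out. Anti-Lag3 against isotype gave 5, with 1 by DESeq2, 0 with filterByExpr, 20 with no filter beyond 1 read, 0 with the 4 samples alone, 3 without *Gm42418* and mitochondrial ribosomal RNA, and 0 to 19 (without anti-Lag3 replicate 1) with a library left out. Anti-PD1 against anti-Lag3 gave 36, with 16 by DESeq2, 58 with no filter beyond 1 read, and 7 (without anti-PD1 replicate 2) to 59 (without anti-Lag3 replicate 1) with a library left out. The cause was not tested.

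With a library left out, 28 of 180 log2 fold changes changed sign, all of them values that had not passed. Their ranges for anti-PD1 against isotype were -0.17 to 0.26 for *Tap1*, -0.28 to 0.28 for *Erap1*, -0.42 to 0.045 for *Nlrc5*, -0.60 to 0.12 for *Tap2* and -0.095 to 0.047 for *B2m*. For anti-Lag3 against isotype they were -0.013 to 0.19 for *H2-Q7*, -0.26 to 0.034 for *Tap1*, -0.64 to 0.085 for *Tap2*, -0.26 to 0.30 for *Erap1*, -0.058 to 0.41 for *Nlrc5*, -0.034 to 0.16 for *H2-K1*, -0.053 to 0.074 for *H2-D1*, -0.16 to 0.01951 for *B2m* and -0.35 to 0.11 for *Tapbp*. Between anti-PD1 and anti-Lag3 they were -0.075 to 0.12 for *H2-K1*, -0.042 to 0.13 for *B2m*, -0.065 to 0.37 for *Tap1*, -0.024 to 0.10 for *Tap2*, -0.38 to 0.089 for *Tapbp*, -0.14 to 0.092 for *Erap1* and -0.0015 to 0.13 for *H2-D1*. *H2-T23* kept its sign in all 3 comparisons, from 0.77 to 1.30, 0.33 to 0.88, and 0.18 to 0.69.

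The replicate numbers were not shown to pair the samples: whether they mark sort batches was not given in the sources used here, and deviations of same-numbered samples correlated at 0.05, 0.05, and -0.05 over 5433 genes. With the replicate block, edgeR called 144, 6, and 46 genes and 0 members, and *H2-T23* for anti-PD1 against isotype was at 1.03 (adjusted p = 0.0535).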
